A study of Homo sapiens with 4 samples.

Results

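Transcripts of nuclear pore complex genes were measured in AGS cells, an established line from a human gastric adenocarcinoma, given ornithogalum, a homeopathic formulation, at 0.01% or ethanol as its vehicle, each for 36 h. Members were every gene whose array annotation gave a symbol of NUP followed by a number, together with AAAS, SEH1L, SEC13, TPR, RANBP2, RAE1, NDC1 and GLE1, on a transcript cluster (a probe set covering 1 transcript locus) with exactly 1 gene symbol. This rule took 31 of 18417 genes that had such a cluster, each through 1 cluster. POM121 and NUP62, which the rule also lists, had only clusters shared with other genes and so have no value of their own here. The 4 Affymetrix Human Gene 1.0 ST arrays form 2 groups, ornithogalum and vehicle, with 2 biological replicates in each, all from that line. Whether each replicate was a separate experiment is not stated in the labels, and p-values cover only the spread among these arrays, which may be technical.

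The nuclear pore is the channel through which RNA and protein pass between nucleus and cytoplasm. An outer ring built of Y-shaped complexes sits on each face of the nuclear envelope, an inner ring lines the membrane opening, and membrane proteins anchor both. The passage itself is filled by proteins rich in phenylalanine-glycine repeats, while filaments on the cytoplasmic face and a basket on the nuclear face receive cargo. Several nucleoporins also act at kinetochores or on chromatin during division.

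Values are log2 expression values on the scale of robust multi-array average (RMA), and differences are ornithogalum minus vehicle. The median over the 21214 clusters with a gene symbol was 4.48 and 4.62 for ornithogalum, against 4.71 and 4.70 for vehicle. The pooled SD within a group was 0.258 for ornithogalum and 0.140 for vehicle. The epithelial markers EPCAM, KRT8 and KRT18 lay between 9.34 and 10.6 on all arrays, and KRT19, a keratin of simple epithelia, fell 2.63-fold. Of the 7 epithelial markers looked at 0 rose and 2 fell, the other being CLDN7, 1.695-fold lower. The share called was 28.6%, against 19.2% of all clusters and 33.1% of those with a mean log2 value of at least 5. CLDN4 and ELF3 lay between 6.62 and 7.52 and did not pass, and KRT19 had 6.54 and 6.70 on the ornithogalum arrays. The 14 markers of leukocytes, fibroblasts, and endothelial and erythroid cells lay between 1.40 and 5.54. Of them 0 passed the test, where 19.2% of all clusters did, and 0 had an unadjusted p under 0.05, where 33.8% did. The share among clusters as dim as these was not computed, so these counts say little about other cell types. The arrays carry no detection call here, so a low value cannot be told from no signal.

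Pore genes moved in both directions. Of the 31 genes, 3 rose (NUP58, RAE1 and NUP160), 5 fell (AAAS, NUP37, NDC1, SEC13 and NUP155) and 23 did not pass the test, which was limma's moderated test with a Benjamini-Hochberg adjusted p under 0.05 over all 21214 clusters. The share called was 25.8%, where the same test called 19.2% of all clusters. By direction, 9.68% of the genes rose, against 6.57% of all clusters, and 16.1% fell, against 12.6%. Among the 8967 clusters with a mean log2 value of at least 5, where 27 of the 31 genes and all 8 called ones lie, the same fit called 33.1%, so these shares are near the background. At an unadjusted p under 0.05 there were 15 of the 31 genes, all among those 27, where 33.8% of all clusters reached it. In a separate fit of the 8967 clusters alone, 17 of the 27 genes and 5135 of the clusters reached it. POM121, NUP62 and RANBP2 also appear on 5, 1 and 8 clusters that list other genes too, and of these 14 clusters 3 were called higher and 0 lower, which cannot be assigned to 1 gene. The median difference was -0.0405 over the pore genes and 0.0354 over all clusters.

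The plot of differences by subcomplex shows this spread. The arrays of the 2 groups did not overlap for 25 of the 31 genes (80.6%), where this held for 62.2% of all clusters and 77.2% of those with a mean of at least 5. In a bulk extract, fewer cells carrying a transcript and less of it per cell cannot be told apart. All calls rested on both vehicle arrays being present, because limma called 0 of the 31 genes without vehicle replicate 1 or without vehicle replicate 2, with 7 and 8 at an unadjusted p under 0.05. The same 2 fits called 0 of all 21214 clusters, of which 4192 and 3986 had an unadjusted p under 0.05. In those 2 fits the 8 genes called as deposited kept their direction. AAAS had differences of -1.6787 and -1.6796, and SEC13 of -0.734 and -0.5909. Centring each array on its median moved the median of all differences to 0.195 and gave 4 higher and 3 lower, against 3 higher and 5 lower as deposited.

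**Figure D1:**
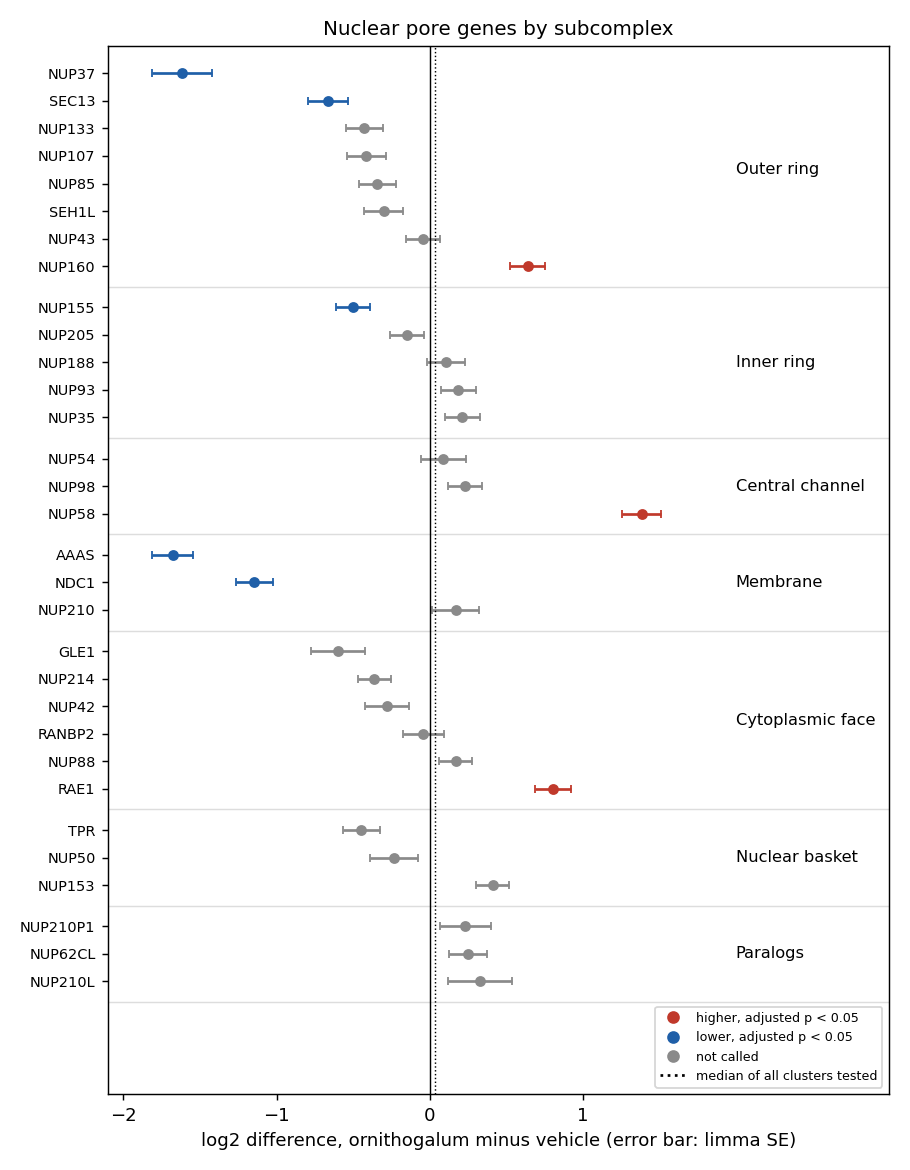
Log2 difference, ornithogalum minus vehicle, of the 31 nuclear pore genes with limma's SE as error bars (n = 2 arrays per group), grouped by pore subcomplex; the dotted line is the median of all clusters tested. Differences run between -1.68 for AAAS and 1.39 for NUP58, and in the outer ring 7 of 8 genes lie below 0 while NUP160 lies above it.

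In the outer ring, the 8 measured subunits of the Y complex, 2 fell, 1 rose and 5 did not pass, with a median difference of -0.377. The share called was 37.5%, against 19.2% of all clusters and 33.1% of those with a mean of at least 5. NUP37, a propeller-shaped subunit that binds NUP160, had the largest fall in this ring. Its values were 4.42 and 4.93 on the ornithogalum arrays, against 6.31 and 6.27 on the vehicle arrays. Both ornithogalum arrays lay far below both vehicle arrays, although they stood further from each other (SD 0.366) than the vehicle arrays did (SD 0.0287). The fall was 3.07-fold (log2 difference -1.62, SE 0.20, limma adjusted p = 0.00761).

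SEC13, which serves both the Y complex and the coat of vesicles leaving the endoplasmic reticulum, had 5.36 and 5.56 on the ornithogalum arrays, against 6.05 and 6.19 on the vehicle arrays. The groups did not overlap, and the fall was 1.58-fold (-0.66, SE 0.13, limma adjusted p = 0.0286). This call was lost after median centring and when all 33297 clusters of the table were tested, and over the settings that kept all arrays the adjusted p lay between 0.00491 and 0.0722.

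NUP160, one arm of the Y and the partner of NUP37, went the other way. It had 7.13 and 7.13 on the ornithogalum arrays, against 6.53 and 6.45 on the vehicle arrays. The ornithogalum arrays were almost identical and lay above both vehicle arrays, and the rise was 1.56-fold (0.64, SE 0.11, limma adjusted p = 0.0194). It missed the threshold when all clusters of the table were tested, at an adjusted p of 0.0534, where the settings that kept all arrays gave 0.00245 to 0.0534. The difference between NUP160 and its partners was not tested.

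The other 5 Y subunits stayed between these extremes. NUP133 and NUP107, which form the stem of the Y, had differences of -0.43 (SE 0.12, limma adjusted p = 0.0719) and -0.41 (SE 0.13, adjusted p = 0.0881). NUP85 had -0.34 (SE 0.12) and SEH1L, which like SEC13 also belongs to a nutrient-sensing complex, had -0.30 (SE 0.13). For each of these 4 genes both ornithogalum arrays lay below both vehicle arrays. Groups were apart, in either direction, in 77.2% of clusters with a mean of at least 5, where all 4 lie. NUP43, another propeller subunit, had 7.51 and 7.53 on the ornithogalum arrays, against 7.59 and 7.53 on the vehicle arrays, a difference of -0.04 (SE 0.11) that became 0.12 after median centring.

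Among membrane-associated members, AAAS and NDC1 both fell and NUP210 did not pass (66.7% of 3 called, against 19.2% of all clusters). AAAS encodes aladin, a soluble propeller protein that NDC1 holds at the pore and that is mutated in triple A syndrome. It had 4.54 and 4.79 on the ornithogalum arrays, against 6.34 and 6.34 on the vehicle arrays. This was the largest difference of any member, with a wide gap between the groups: the fall was 3.20-fold (-1.68, SE 0.13, limma adjusted p = 0.00364). Like those of NUP37, the ornithogalum values of AAAS lay near the medians of these arrays (4.48 and 4.62). Without a detection call, how far background limits the size of either fall is not known. NDC1, a transmembrane protein needed for pore assembly, had 6.15 and 6.21 on the ornithogalum arrays, against 7.40 and 7.25 on the vehicle arrays. Both of its ornithogalum values lay more than 1 log2 unit below both vehicle values, and the fall was 2.21-fold (-1.15, SE 0.12, limma adjusted p = 0.00558). AAAS, NDC1 and NUP37 were called lower in each of the 9 other settings that kept all 4 arrays. NUP210, a large glycoprotein of the pore membrane found only in some cell types, had 3.73 and 3.59 on the ornithogalum arrays, against 3.65 and 3.34 on the vehicle arrays, and its groups overlapped.

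The central channel held the largest rise. NUP58 forms a trimer with NUP62 and NUP54 that lines the channel with phenylalanine-glycine repeats. It had 8.67 and 8.74 on the ornithogalum arrays, against 7.42 and 7.22 on the vehicle arrays. The groups were well apart and the rise was 2.61-fold (1.39, SE 0.13, limma adjusted p = 0.00449). Its partner NUP54 had 6.34 and 6.57 on the ornithogalum arrays, against 6.47 and 6.26 on the vehicle arrays. These values overlapped between groups, with a difference of 0.09 (SE 0.15) that turned to -0.0251 without ornithogalum replicate 2 and -0.0152 without vehicle replicate 2. NUP98, a mobile channel protein whose precursor is also cleaved to give the Y subunit NUP96, had 8.29 and 8.28 on the ornithogalum arrays, against 8.05 and 8.06 on the vehicle arrays. Its groups did not overlap, but the difference of 0.23 (SE 0.11) had an adjusted p of 0.209.

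On the cytoplasmic face 1 of 6 genes rose and 0 fell. The share called was 16.7%, against 19.2% of all clusters and 33.1% of those with a mean of at least 5, where all 6 lie. At an unadjusted p under 0.05 there were 3 of 6, where 33.8% of all clusters reached it. RAE1, an mRNA export factor that binds NUP98 and also takes part in the spindle checkpoint, had 7.51 and 7.47 on the ornithogalum arrays, against 6.62 and 6.76 on the vehicle arrays. Both ornithogalum values exceeded both vehicle values, and the rise was 1.75-fold (0.80, SE 0.12, limma adjusted p = 0.0125). RAE1 and NUP58 were called higher in each of the 9 other settings that kept all 4 arrays.

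Of the remaining genes of the cytoplasmic face, GLE1, NUP42 and NUP214 lay lower without passing. NUP88 lay higher without passing, and RANBP2 changed sign between settings. GLE1, which activates the helicase that strips proteins from exported mRNA, had 5.16 and 5.46 on the ornithogalum arrays, against 6.07 and 5.75 on the vehicle arrays. The groups did not overlap, yet the arrays within them were spread (SD 0.211 for ornithogalum and 0.227 for vehicle), and the difference of -0.60 (SE 0.18) had an adjusted p of 0.0781. NUP42, which binds GLE1, had -0.28 (SE 0.14). NUP214 and NUP88 form a complex at the base of the filaments. NUP214 had 7.01 and 7.03 on the ornithogalum arrays, against 7.39 and 7.38 on the vehicle arrays (-0.36, SE 0.11, limma adjusted p = 0.0839), while NUP88 had 7.75 and 7.79, against 7.62 and 7.59 (0.17, SE 0.11, adjusted p = 0.338). RANBP2, the giant filament protein that binds Ran and acts as a SUMO ligase, had a difference of -0.04 (SE 0.14), which turned positive after median centring (0.12) and after quantile scaling (0.0074), without ornithogalum replicate 2 (0.0473) and without vehicle replicate 1 (0.0581). RANBP2 has near-identical gene copies of the RGPD family, and 8 further clusters were annotated to both, so cross-hybridisation to its own cluster is uncertain.

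**Figure D2:**
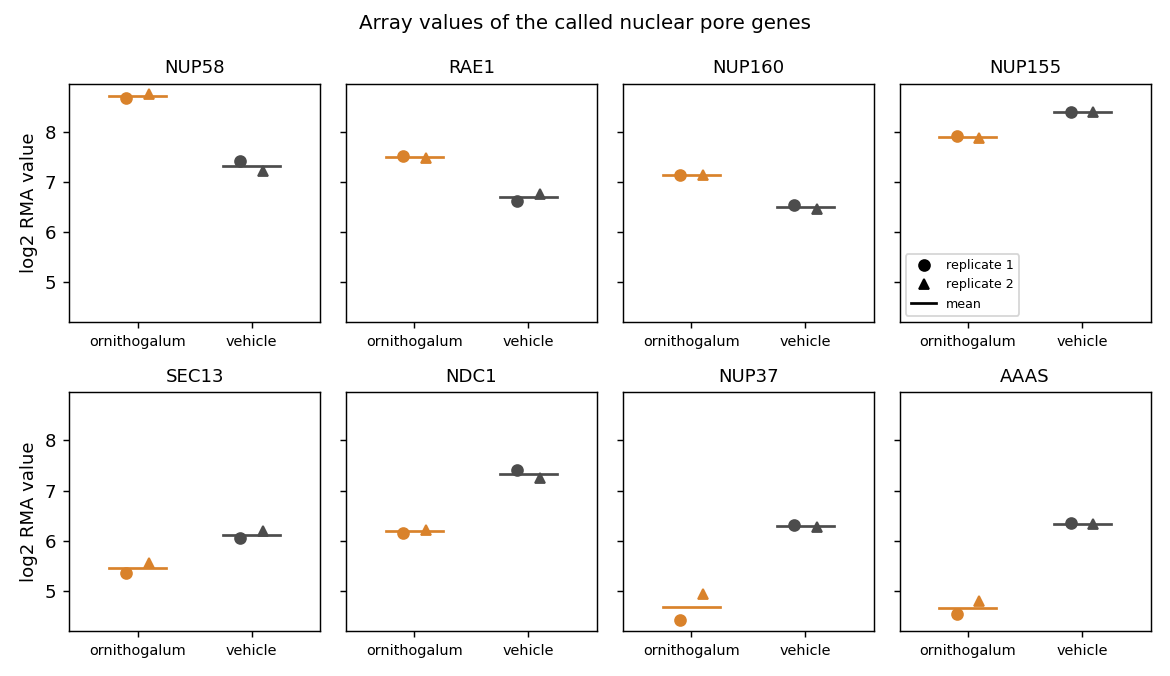
Log2 RMA value on each array for the 8 called pore genes, ornithogalum left and vehicle right; circles are replicate 1, triangles replicate 2 and lines the group means (n = 2). In each gene both ornithogalum arrays lie on the same side of both vehicle arrays, by the widest margin in AAAS. The genes were chosen by limma's call on these same arrays, which favours such separation.

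In the inner ring 1 of 5 genes fell and 0 rose, with a median of 0.108. The share called was 20%, against 19.2% of all clusters and 33.1% of those with a mean of at least 5, where all 5 lie. NUP155, which contacts the pore membrane, had 7.91 and 7.87 on the ornithogalum arrays, against 8.39 and 8.39 on the vehicle arrays. The vehicle pair was nearly identical (SD 0.0001), and the fall was 1.41-fold (-0.50, SE 0.11, limma adjusted p = 0.0368). This was the called member nearest the threshold. It was lost with the replicate number as a block, after median centring and over all clusters of the table, and the adjusted p over the settings that kept all arrays lay between 0.00275 and 0.126. NUP93, the hub of the ring, had 7.76 and 7.72 on the ornithogalum arrays, against 7.59 and 7.51 on the vehicle arrays (0.19, SE 0.11), and NUP35 had 0.22 (SE 0.12). The 2 largest scaffold subunits were close to 0: NUP205 had -0.15 (SE 0.11), which became 0.01 after median centring, and NUP188 had 0.11 (SE 0.12).

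The 3 nuclear basket genes did not pass, with 2 of 3 at an unadjusted p under 0.05 and in opposite directions. Of all clusters 33.8% reached an unadjusted p under 0.05. TPR, the long coiled-coil protein that forms the basket, had 6.85 and 6.997 on the ornithogalum arrays, against 7.39 and 7.35 on the vehicle arrays (-0.45, SE 0.12, limma adjusted p = 0.0613). NUP153, which tethers TPR to the pore, had 8.91 and 8.91 on the ornithogalum arrays, against 8.46 and 8.53 on the vehicle arrays (0.41, SE 0.11, limma adjusted p = 0.0628). In both genes the groups did not overlap, which held for 77.2% of clusters with a mean of at least 5. NUP50, which helps release imported cargo, had 5.22 and 5.57 on the ornithogalum arrays, against 5.58 and 5.67 on the vehicle arrays, and the groups came close without overlapping.

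A pseudogene and a pair of paralogs with NUP symbols had low values. NUP210L, a relative of NUP210 known from testis, lay between 2.07 and 2.73 on the 4 arrays, NUP62CL, a relative of NUP62, between 1.88 and 2.25, and the pseudogene NUP210P1 between 3.90 and 4.41. None of these 3 passed the test as deposited, and their differences were 0.23 to 0.33. NUP62CL turned to -0.0438 after quantile scaling and -0.0093 after cyclic loess, and NUP210L was called higher without ornithogalum replicate 2.

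Genes that work with the pore were counted in the same fit, with 24 of 66 called (36.4%), 12 higher and 12 lower (18.2% each). The same test called 19.2% of all clusters, 6.57% higher and 12.6% lower, and 33.1% of those with a mean of at least 5, so the share called over these genes is near that of bright clusters. The lists below are read against these shares, and nothing particular to a list was tested. Importins and their adaptors, which carry cargo inward, rose in 5 and fell in 4 of 18 (27.8% and 22.2%, against 6.57% and 12.6% of all clusters), with a median difference of 0.144. KPNA4, an importin alpha adaptor, rose 2.69-fold (1.43, SE 0.11). Its values were 7.79 and 7.71 on the ornithogalum arrays, against 6.34 and 6.31 on the vehicle arrays, so the groups were far apart. IPO7, an importin of ribosomal proteins, rose 1.75-fold and TNPO1, which imports RNA-binding proteins, 1.62-fold. IPO4 fell 2.46-fold (-1.30, SE 0.11), IPO8 1.97-fold and IPO9, an importin of histones and actin, 1.82-fold. These 6 importin genes had limma adjusted p-values of 0.0036 to 0.0152.

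Exportins, which carry cargo outward, fell in 3 of 7 and rose in 0 (42.9% and 0%, against 12.6% and 6.57% of all clusters). The share called, 42.9%, stood against 19.2% of all clusters and 33.1% of bright ones, and the median was -0.316. XPOT, the tRNA exporter, fell 2.13-fold (-1.09, SE 0.12), XPO7 1.99-fold and CSE1L, which returns importin alpha to the cytoplasm, 1.70-fold, with limma adjusted p between 0.00648 and 0.0126. XPO1, the main exporter of proteins, had 7.43 and 7.39 on the ornithogalum arrays, against 7.69 and 7.64 on the vehicle arrays, and did not pass. Genes of the Ran cycle, which gives transport its direction, passed in 0 of 6, where 19.2% of all clusters passed. At an unadjusted p under 0.05 there were 0, where 33.8% of all clusters reached it, and the median was -0.0442. RAN itself had 8.72 and 8.87 on the ornithogalum arrays, against 8.96 and 8.83 on the vehicle arrays, and the groups overlapped.

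Export factors for mRNA rose in 4 and fell in 1 of 17 (23.5% and 5.88%, against 6.57% and 12.6% of all clusters). Of this list 29.4% were called, against 19.2% of all clusters and 33.1% of bright ones, and the median was 0.0152. The largest difference of the list was that of THOC7, -1.34 (SE 0.38), which did not pass (limma adjusted p = 0.0737). Its values were 4.48 and 5.64 on the ornithogalum arrays, against 6.47 and 6.33 on the vehicle arrays. ENY2 rose 1.88-fold (0.91, SE 0.14) and PCID2 1.64-fold (0.72, SE 0.11), both part of a complex that links transcription to export at the basket. POLDIP3, an adaptor of the export machinery, rose 1.67-fold, a call lost over all clusters of the table (adjusted p = 0.0523). DDX19B, the helicase that GLE1 activates, fell 1.43-fold (-0.52, SE 0.11, limma adjusted p = 0.0359). Its call was lost with the replicate block (0.0766), after quantile scaling (0.0602), cyclic loess (0.0506) or median centring (0.125), and over all clusters of the table (0.084), values being adjusted p. Nuclear envelope and lamina genes rose in 3 and fell in 4 of 18 (38.9% called, against 19.2% of all clusters and 33.1% of bright ones), with a median of -0.118. LEMD3, an inner membrane protein that restrains Smad signalling, rose 2.01-fold, TOR1AIP2 1.81-fold and NEMP1 1.65-fold. The lamin gene LMNB1 fell 1.85-fold, SYNE2, which ties the nucleus to the cytoskeleton, 1.78-fold and the emerin gene EMD 1.41-fold, with adjusted p between 0.0181 and 0.0451. The call of EMD was lost with the replicate block (adjusted p = 0.0853), after quantile scaling (0.0545) or median centring (0.105), over all clusters of the table (0.0994) and without ornithogalum replicate 1 (0.0653). LMNB1 and SYNE2 lost theirs over all clusters of the table (adjusted p = 0.0521 and 0.0613). All other transport and envelope genes named with a call kept it in each of the 11 alternatives that retain both vehicle arrays.

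**Figure D3:**
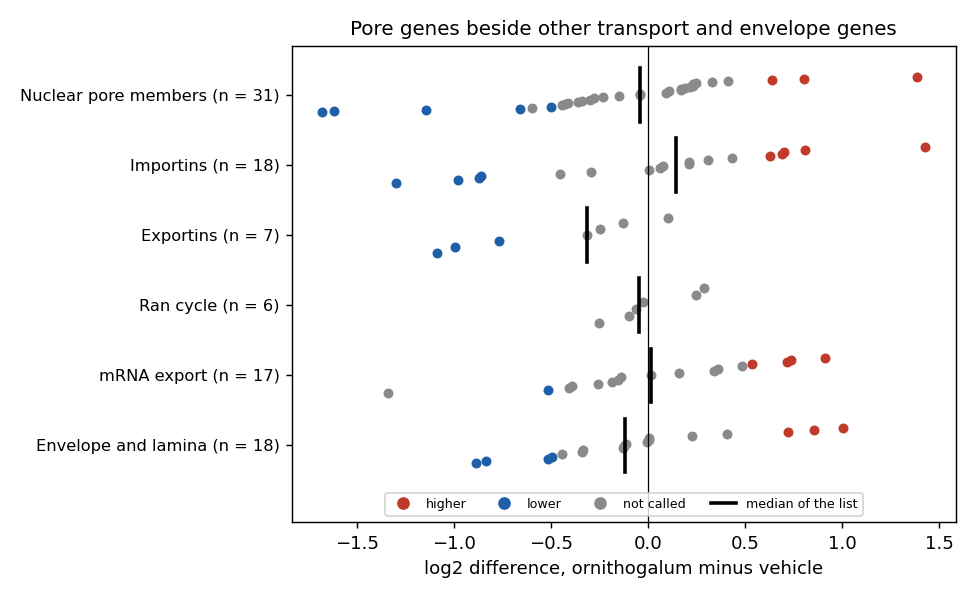
Log2 difference, ornithogalum minus vehicle, of each pore gene (top) and of each measured gene in 5 transport and envelope lists; each point is a gene, colour marks limma's call and the black bar is the list's median. Called genes lie on both sides of 0 among importins and envelope genes, the 3 called exportins lie below 0, and 0 of 6 Ran cycle genes are called.

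Promoter sequence was available from RefSeq (GRCh38.p14) for 28 of the 31 genes, taken as the 250 bases before the first listed start. GLE1, NUP43 and NUP210P1 had no entry. Sequences are shown for the largest rise (NUP58), the largest fall (AAAS), and NUP160 and NUP37, the Y partners that moved apart, with capitals marking matches to the motifs given below on either strand. For NUP37 only the 68 bases between its start and that of PARPBP, which runs the other way, are printed, on the NUP37 strand. The windows are chr13:25301375-25301624 (plus strand), chr12:53321611-53321860 (minus), chr11:47848351-47848600 (minus) and chr12:102120115-102120182 (minus).
NUP58: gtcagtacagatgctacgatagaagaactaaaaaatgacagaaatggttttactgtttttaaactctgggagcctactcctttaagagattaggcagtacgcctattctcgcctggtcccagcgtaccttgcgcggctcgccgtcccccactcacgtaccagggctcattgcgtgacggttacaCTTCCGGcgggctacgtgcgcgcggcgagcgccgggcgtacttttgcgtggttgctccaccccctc
AAAS: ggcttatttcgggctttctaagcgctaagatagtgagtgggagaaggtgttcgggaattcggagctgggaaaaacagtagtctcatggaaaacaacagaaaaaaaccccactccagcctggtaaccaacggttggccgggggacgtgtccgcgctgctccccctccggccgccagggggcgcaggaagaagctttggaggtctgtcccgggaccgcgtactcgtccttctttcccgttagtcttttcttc
NUP160: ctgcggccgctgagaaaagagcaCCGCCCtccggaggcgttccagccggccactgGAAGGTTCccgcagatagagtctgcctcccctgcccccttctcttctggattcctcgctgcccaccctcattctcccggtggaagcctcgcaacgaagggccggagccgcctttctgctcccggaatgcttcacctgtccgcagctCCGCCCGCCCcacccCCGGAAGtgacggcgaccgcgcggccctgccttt
NUP37 to PARPBP: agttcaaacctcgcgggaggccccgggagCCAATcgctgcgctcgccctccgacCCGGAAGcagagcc

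The ETS motif CCGGAAG lay in 11 of the 28 promoters (39.3%), where 12.1% of 14237 promoters of measured genes and 8.82% of all 27305 promoters held it. It was in 2 of 3 genes that rose (NUP58 and NUP160) and in 2 of 5 that fell (NUP37 and SEC13). A link with direction was not tested, and these counts are too small to show or exclude one. The CCAAT box lay in 42.9% of member promoters and 34.4% of those of measured genes, and in the printed stretch beside NUP37 it stands with an ETS match. The GGGCGG box of SP1 lay in 46.4%, against 57.5%, and its matches overlap each other in part in the NUP160 window. The cyclic AMP element TGACGTCA lay in 3 promoters, 10.7% against 2.37%, none of a called gene. The NRF1 motif lay in 10.7% against 7.99%, the E-box CACGTG in 7.14% against 7.86%, the heat shock element GAANNTTC in 3.57%, namely in NUP160, against 4.66%, and the YY1 motif in 0 of 28, against 0.443%. The AAAS window held none of these 8 motifs. These matches describe letters and do not show binding.

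At 12 of the 28 promoters a gene on the other strand started within 1000 bases and ran away from the pore gene, and 6 of these neighbours had a cluster of their own. PARPBP, an inhibitor of homologous recombination, starts 69 bases from NUP37 and also fell. It had 3.56 and 3.99 on the ornithogalum arrays, against 5.13 and 4.91 on the vehicle arrays, a 2.37-fold fall (-1.25, SE 0.18, limma adjusted p = 0.0127). This was the single pair of the 6 in which both genes were called. Of the 6 neighbours 1 rose and 2 fell, where the test called 19.2% of all clusters and 33.1% of those with a mean of at least 5. Whether the genes of a pair changed for a shared reason was not tested. PGAP2, which acts in the maturation of membrane anchors, starts 174 bases from NUP98 and had 5.64 and 5.24 on the ornithogalum arrays, against 6.95 and 6.87 on the vehicle arrays. It fell 2.77-fold (-1.47, SE 0.17, limma adjusted p = 0.00678) while NUP98 did not pass. ODR4, 585 bases from TPR, had 7.37 and 7.16 on the ornithogalum arrays, against 6.55 and 6.49 on the vehicle arrays and rose 1.68-fold (adjusted p = 0.0188), while TPR lay lower without passing. The neighbours of NUP188 (DOLK), NUP88 (RPAIN) and NUP62CL (DNAAF6) did not pass, with differences of -0.27, -0.14 and 0.44. Differences within a pair were not tested.

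The plot of calls across settings shows how the 16 members that passed in at least 1 setting behaved. With a robust, intensity-dependent prior limma called 14 of the 31 genes, 4 higher and 10 lower, where it called 24.1% of all clusters, adding NUP153 among those higher and GLE1, NUP133, NUP214, NUP85 and TPR among those lower. Testing bright clusters only called 15 of 27, the same 14 genes and NUP107, where 50.9% of the 8967 clusters were then called. The 8 genes called on the deposited values kept their direction in all 13 alternative settings, and their calls were lost in the settings named above.

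**Figure D4:**
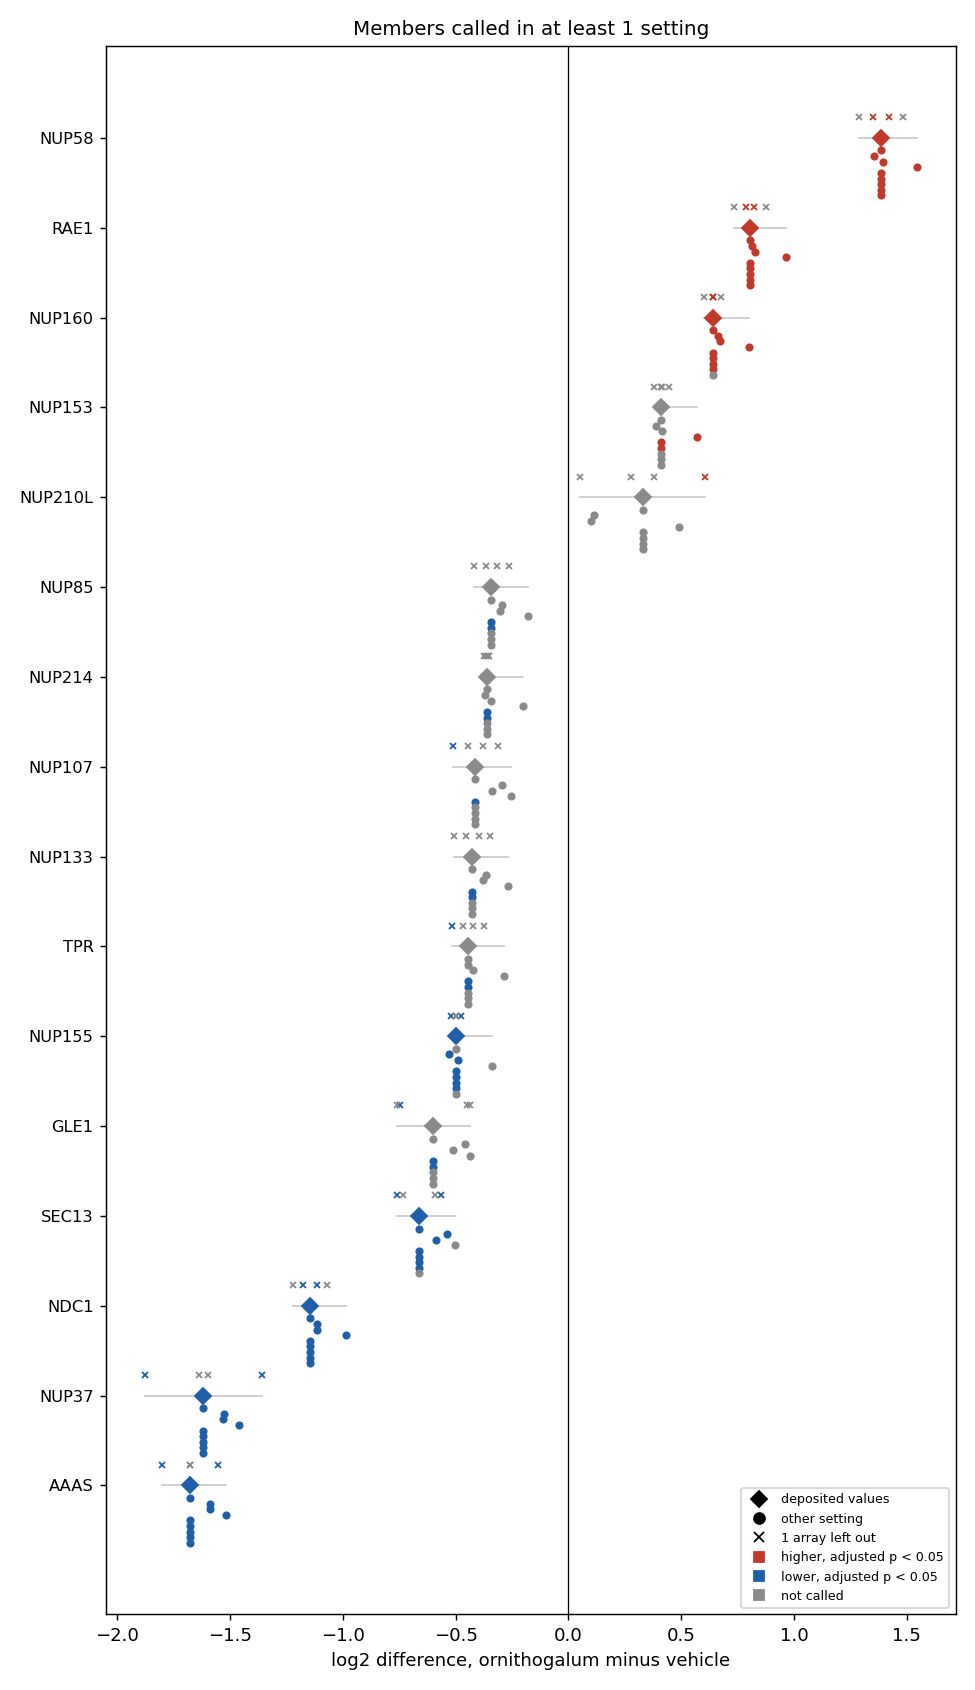
Log2 difference, ornithogalum minus vehicle, of the 16 pore genes called in at least 1 setting; diamonds are the deposited values, circles (stacked below) the 9 other settings and crosses the 4 fits that leave out an array, with colour for limma's call in that setting. AAAS, NUP37, NDC1, RAE1 and NUP58 are coloured in all circles, while crosses without either vehicle array are grey for every gene.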

How the data were processed

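The deposited table holds a log2 value per transcript cluster and array, which the authors made by RMA. Per the submitters' processing notes the software was Affymetrix Expression Console 1.1. The sources used here name neither background nor filter settings, and the 4 columns differ in distribution. Over clusters with a symbol the interquartile range was 2.44 and 2.56 for ornithogalum, against 2.72 and 2.71 for vehicle. All 4 members with a mean under 5 had a difference above 0, while of the other 27 members 10 lay above and 17 below. Whether these patterns are linked was not tested. Of 33297 clusters, 19460 have 1 symbol, 1754 several and 12083 none in the platform annotation, and the 21214 with a symbol were tested without a filter on dim clusters. The deposited log2 values were compared in R 4.3.3 with limma 3.58.1 (lmFit, then eBayes, two-sided, Benjamini-Hochberg over all tested clusters, threshold 0.05). Each gene is represented by its brightest cluster. "Rose" and "fell" refer to this threshold, SDs are over 2 arrays and SEs are limma's. Precision is limited by the number of arrays.

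The members, subcomplexes, transport lists and motifs were chosen with earlier results of these data known. The naming rule takes every called member, the others by subcomplex, and of each transport list the 3 called genes of smallest p in each direction. XPO1, RAN and THOC7 were named besides. Neighbours and motifs were counted in Python 3.11.15 from RefSeq starts. AHCTF1, POM121C, RCC1, NXF1, DDX39B, THOC3 and the marker HBA1 had no cluster with 1 symbol and were not analysed here.

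Alternatives were a block for the replicate number, fits without each array in turn, scaling by quantiles, by cyclic loess or to the median, bright clusters only (mean log2 of at least 5), an intensity trend with a robust prior, array weights, and other sets of clusters.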

Additional observations from a re-analysis of the deposited data

How the results depend on the processing

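Leaving out 1 array at a time gave 0 to 11 called members, 0 to 4 higher and 0 to 7 lower, with 0 in each case without vehicle replicate 1 or 2; the lone remaining array of a group is then assumed to vary like the other group. The median difference of members ran between -0.1285 and -0.0097 over these fits, and the difference ran between -0.0251 and 0.2049 for NUP54 and between -0.1373 and 0.0581 for RANBP2. Among settings with all arrays, 15 members (11 lower) were called with bright clusters only, 14 (10 lower) with the intensity trend and robust prior and 5 (3 lower) over all clusters of the table, and 3 were lower after median centring. Bright clusters only tests fewer clusters and the whole table more, and each of these fits also estimates limma's prior anew. With bright clusters only the SE was 0.1126 for SEC13 and 0.0884 for NUP155, against 0.1326 and 0.1097 in the main fit. The cause of these changes in calls was not tested. The median of members was -0.0606 after quantile scaling, -0.0273 after cyclic loess, 0.1192 after median centring and -0.2342 with bright clusters only. Signs turned for RANBP2 (0.0074 after quantile scaling, 0.1201 after median centring), NUP43 (0.1192) and NUP205 (0.01) after median centring, and NUP62CL (-0.0438 after quantile scaling, -0.0093 after cyclic loess), none of them called. In the 9 settings with all arrays, 249 of 275 member results kept their direction and side of the threshold, 14 passed newly, 6 lost the call and 6 turned sign.

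Both groups carry replicate numbers 1 and 2, but the labels tie no number to a shared batch, and deviations of same-numbered arrays from their group means correlated at r = -0.0585 across clusters. With the replicate number as a block limma called 7 members, 3 higher and 4 lower, losing NUP155, and 3302 of all clusters, against 4076 without it. The mean over several clusters of a gene was not run, since each member had 1 cluster. Few arrays and low signal limit what can be said of the 4 members with a mean under 5.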
